A study of Mus musculus with 46 samples.

Results

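The subunits of Mediator were followed through AB1-HA tumors of mice given cyclophosphamide (CY). The genes were chosen by symbol alone, as every row of the counts table named Med followed by a number, with or without a final l. This gave 30 genes of 46011 complete rows, and no measured value entered the choice. The family was nevertheless put forward with earlier results of these data known, so the calls below describe these tumors and are not independent support. AB1-HA is a murine mesothelioma cell line that expresses influenza hemagglutinin (HA). All 46 tumors grew under the skin of male BALB/c mice aged 8-10 weeks that bore a tumor on each side and received 200 mg/kg CY on day 10. One tumor was resected for bulk RNA sequencing, and its partner served as the readout of response, sorting mice into complete responders (CR) and those labelled PR (partial responders in the series design, progressors in the study). Resection fell on day 9, before CY (Day-1, 13 CR and 13 PR), on day 13 (Day+3, 5 CR and 5 PR) or on day 17 (Day+7, 5 CR and 5 PR), each tumor from a different mouse. The labels give no library batch. Time after CY and tumor age cannot be told apart, nor, between Day-1 and the later days, can sequencing depth.

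Mediator is a large assembly that carries signals from DNA-bound activators to RNA polymerase II at promoters. It is built from a head, a middle and a tail module, held together by the scaffold subunit Med14, and from a kinase module of Med12 or Med12l, Med13 or Med13l, cyclin C and Cdk8 or Cdk19 that docks reversibly. Individual subunits are known as contact points for particular factors, such as Med1 for nuclear hormone receptors. The modules are used here as a working order, since sources place Med19 and Med27 to Med30 differently.

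Promoters are shown for 2 subunits that were far lower at day 7 than at Day-1 (Med14 and Med19) and 2 that were higher (Med28 and Med11), picked for those values. RefSeq gave windows of 300 bases on GRCm38.p6 around the gene start for 26 of the 30 subunits, 30 windows in all. Capitals mark CCGGAA (the ETS core), GGGCGG (an SP1 box), CCAAT and TATAAA on either strand. The windows lie at chrX:12761924-12762223 on the minus strand (Med14), chr2:84678152-84678451 (Med19), chr5:45519979-45520278 (Med28) and chr11:70451668-70451967 (Med11), the last 3 on the plus strand.
Med14: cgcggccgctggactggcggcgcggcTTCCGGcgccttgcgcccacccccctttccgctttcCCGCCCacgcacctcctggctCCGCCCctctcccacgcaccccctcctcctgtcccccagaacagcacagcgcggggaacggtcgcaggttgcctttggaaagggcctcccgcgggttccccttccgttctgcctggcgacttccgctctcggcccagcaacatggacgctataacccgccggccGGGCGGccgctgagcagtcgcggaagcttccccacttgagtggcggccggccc
Med19: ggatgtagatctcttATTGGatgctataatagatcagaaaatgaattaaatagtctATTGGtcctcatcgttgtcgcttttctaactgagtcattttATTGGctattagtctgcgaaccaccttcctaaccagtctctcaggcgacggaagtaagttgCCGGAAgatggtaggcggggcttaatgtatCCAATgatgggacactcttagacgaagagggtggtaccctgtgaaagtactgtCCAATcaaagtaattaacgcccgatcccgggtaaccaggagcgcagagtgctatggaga
Med28: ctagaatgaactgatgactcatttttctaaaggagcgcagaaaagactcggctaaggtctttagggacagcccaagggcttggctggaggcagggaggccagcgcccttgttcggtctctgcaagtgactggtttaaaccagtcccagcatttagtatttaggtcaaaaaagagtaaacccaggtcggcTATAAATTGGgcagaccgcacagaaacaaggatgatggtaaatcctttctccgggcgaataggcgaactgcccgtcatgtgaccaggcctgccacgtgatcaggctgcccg
Med11: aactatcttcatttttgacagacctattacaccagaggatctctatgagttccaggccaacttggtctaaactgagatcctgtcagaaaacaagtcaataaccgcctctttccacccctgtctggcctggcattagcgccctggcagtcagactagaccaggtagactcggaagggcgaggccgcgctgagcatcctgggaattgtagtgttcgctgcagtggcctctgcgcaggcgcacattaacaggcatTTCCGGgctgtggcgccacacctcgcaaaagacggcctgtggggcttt
CCGGAA stood in 15 of the 30 windows, against 14.9% of 32851 RefSeq windows of the same length. GGGCGG stood in 18 of the 30 (35.7% of all windows), CCAAT in 11 (37.4%), TATAAA in 3 (13.6%) and AAGATGGCG (a YY1 motif) in 0 (1.4%). Of the 4 windows printed, Med14, Med19 and Med11 hold CCGGAA, and Med28 holds TATAAA, which runs into a reverse CCAAT. Med7, Med10, Med15 and Med27 each have 2 windows, those of Med7 and of Med15 overlap, and a match is a description of letters only.

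Total counts per tumor ran from 10227681 to 14218987 at Day-1, from 15412744 to 18748688 at Day+3 and from 16047930 to 19446596 at Day+7. Among 11 mesothelial markers, Msln had a median CPM (counts brought to one effective library size by TMM factors) of 374.6 at Day-1 and 58.7 at Day+7, and Efemp1 was abundant throughout, whereas Calb2, Krt18, Krt19, Muc16, Lrrn4 and Gpm6a stayed under 1 CPM in all 46 tumors. The keratin gene Krt5 of the skin exceeded 10 CPM in 16 tumors. No pair among 1035 pairs of libraries was identical. All 30 subunits passed the filter on low counts in every comparison.

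Before CY, most subunits were expressed at middling to high levels with little spread between tumors. Levels between genes are given as CPM per kilobase of the principal transcript. On this scale Med28, Med26, Med18 and Med12l stood at percentiles 48.8, 45.2, 38.6 and 4.39 of the genes tested. Counts are per gene, so the order depends on the transcript chosen. That of Med21 has 572 bases, where the gene has 3523 exon bases. Med21, which forms the hinge of the middle module with Med7, stood highest at 124.0 ± 7.53 (SD, n = 26), followed by Med22, a head subunit, at 75.7 ± 5.29. At the other end were Med18, a movable head subunit, at 4.79 ± 0.649, and Med12l, the paralog of Med12, at 0.356 ± 0.126. Med21 over Med22, Med9 over Med28 and Med18 over Med12l were the 3 neighbors in this order whose tumors did not overlap. For the other 26 steps the ranges overlapped. The coefficient of biological variation between tumors before CY lay between 0.0424 (Med8) and 0.312 (Med12l). Its median was 0.0704, against 0.114 for all genes tested, and 29 of the 30 were under that median of all genes. Med26 (0.112) and Med18 (0.106) came close to it. The 30 genes sit on 17 chromosomes.

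**Figure D1:**
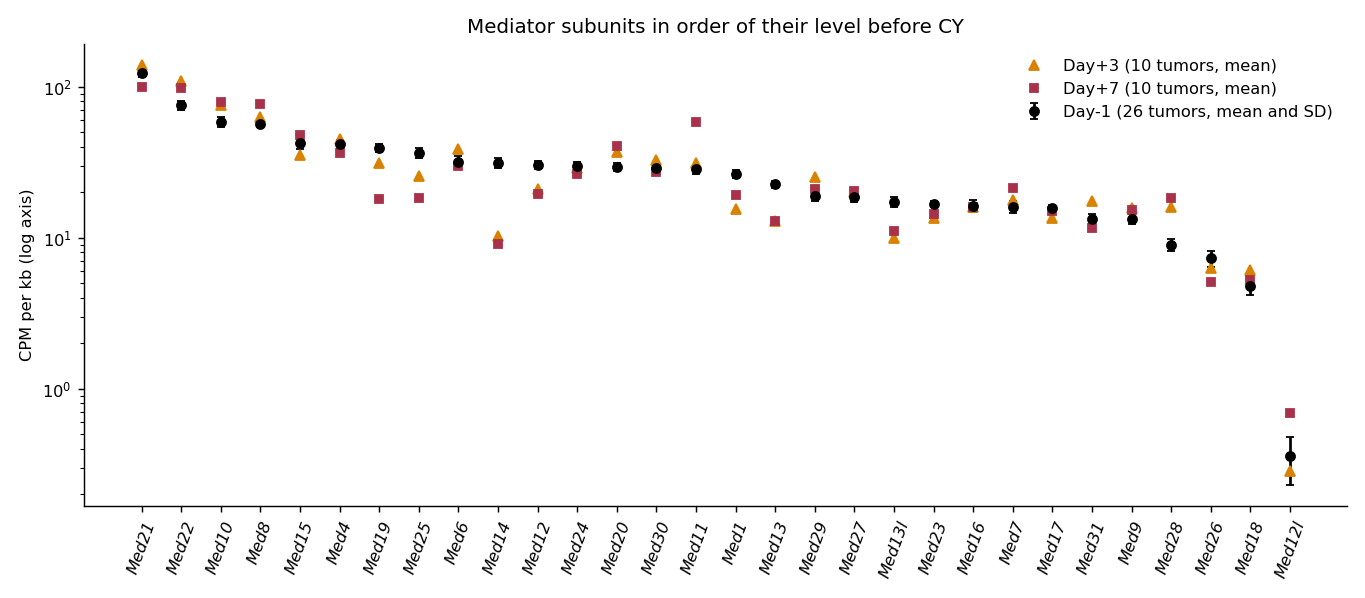
Mean level of each Mediator subunit in CPM per kilobase of transcript (log axis), in order of the level at Day-1, with the SD over 26 tumors for Day-1 and means of 10 tumors each for Day+3 and Day+7. Med14 falls from 31.3 at Day-1 to 10.2 and 9.15, Med11 climbs from 28.3 to 58.3 at Day+7, and Med12l stays lowest on each day.

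CR and PR tumors were compared on each day. No Mediator subunit was called between CR and PR at any day by edgeR's quasi-likelihood test, with p-values adjusted over all genes tested (Benjamini-Hochberg) and calls at an FDR under 0.1. That is 0 of 30 before CY, where 0.00928% of 10777 genes were called, and 0 of 30 at day 3 and at day 7, where 0% of 11839 and 0% of 11727 genes were called. Without adjustment, 5 subunits had p under 0.05 before CY and 0 at each later day, against 17.5%, 2.16% and 2.84% of all genes. The differences before CY ran from -0.15 to 0.30 on the log2 scale with a median of -0.02 (-0.01 for all genes), 20 subunits being lower and 10 higher in CR. In a bulk tumor, fewer cells that express a gene and less of its RNA per cell cannot be told apart.

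The smallest p before CY belonged to Med14. Its CPM was 176.6, 215.0 and 229.3 (lowest, median, highest) in the 13 CR tumors and 204.7, 226.9 and 249.6 in the 13 PR tumors. The groups overlapped over much of their range. The difference was -0.12 (SE 0.0379, adjusted p = 0.154). DESeq2 and limma-voom with quality weights called it, as did the fit without PR replicate 7 or 9. Of all 10777 genes tested, DESeq2 called 232 higher and 211 lower in CR, and limma-voom called 714 and 474. Med4, a middle subunit that pairs with Med9, was next, with 46.6, 54.5 and 59.5 CPM in CR and 53.0, 57.9 and 61.1 CPM in PR. These also overlapped, at -0.10 (SE 0.0379, adjusted p = 0.199). On the same tumors, the 13 T cell markers had a median log2 difference of 0.60 (0 of 13 called), with their summed level at 82.4 to 288.3 CPM in CR and 53.6 to 224.8 CPM in PR. Their part in the subunits' values was not tested.

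At day 3 the smallest p belonged to Med30 (-0.11, SE 0.0553) and Med4 (-0.06, SE 0.0449), both with adjusted p = 0.999983. At day 7 it belonged to the tail subunits Med15 (-0.10, SE 0.0572), a contact of lipid-regulating activators, and Med16 (-0.11, SE 0.0677), both with adjusted p = 0.967. Without the tumors over 10 CPM of Krt5, which were 5 of the 10 at day 7, the Med15 value became 0.0036. The 95% intervals of the 30 log2 differences lay between -0.298 and 0.689 before CY, between -0.507 and 0.337 at day 3 and between -0.493 and 0.366 at day 7, the widest belonging to Med12l on each day. Their median half-widths were 0.0800, 0.129 and 0.149.

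Whether the response difference itself changed with time was tested as an interaction in the fit of all 46 tumors. No subunit was called at day 3 against Day-1 (0% of 13194 genes were) or at day 7 against Day-1 (0.00758%). Med14 had 0.16 (SE 0.0752, unadjusted p = 0.0362) at day 3, followed by Med24, a tail subunit, at 0.07 (SE 0.0547). The smallest adjusted p of any subunit there was 0.999979. Without adjustment, 1 of 30 subunits had p under 0.05 at day 3 and 2 at day 7, against 3.49% and 11.5% of all genes. At day 7, Med4 had 0.17 (SE 0.0680, adjusted p = 0.356) and Med14 had 0.19 (SE 0.0755, adjusted p = 0.358).

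**Figure D2:**
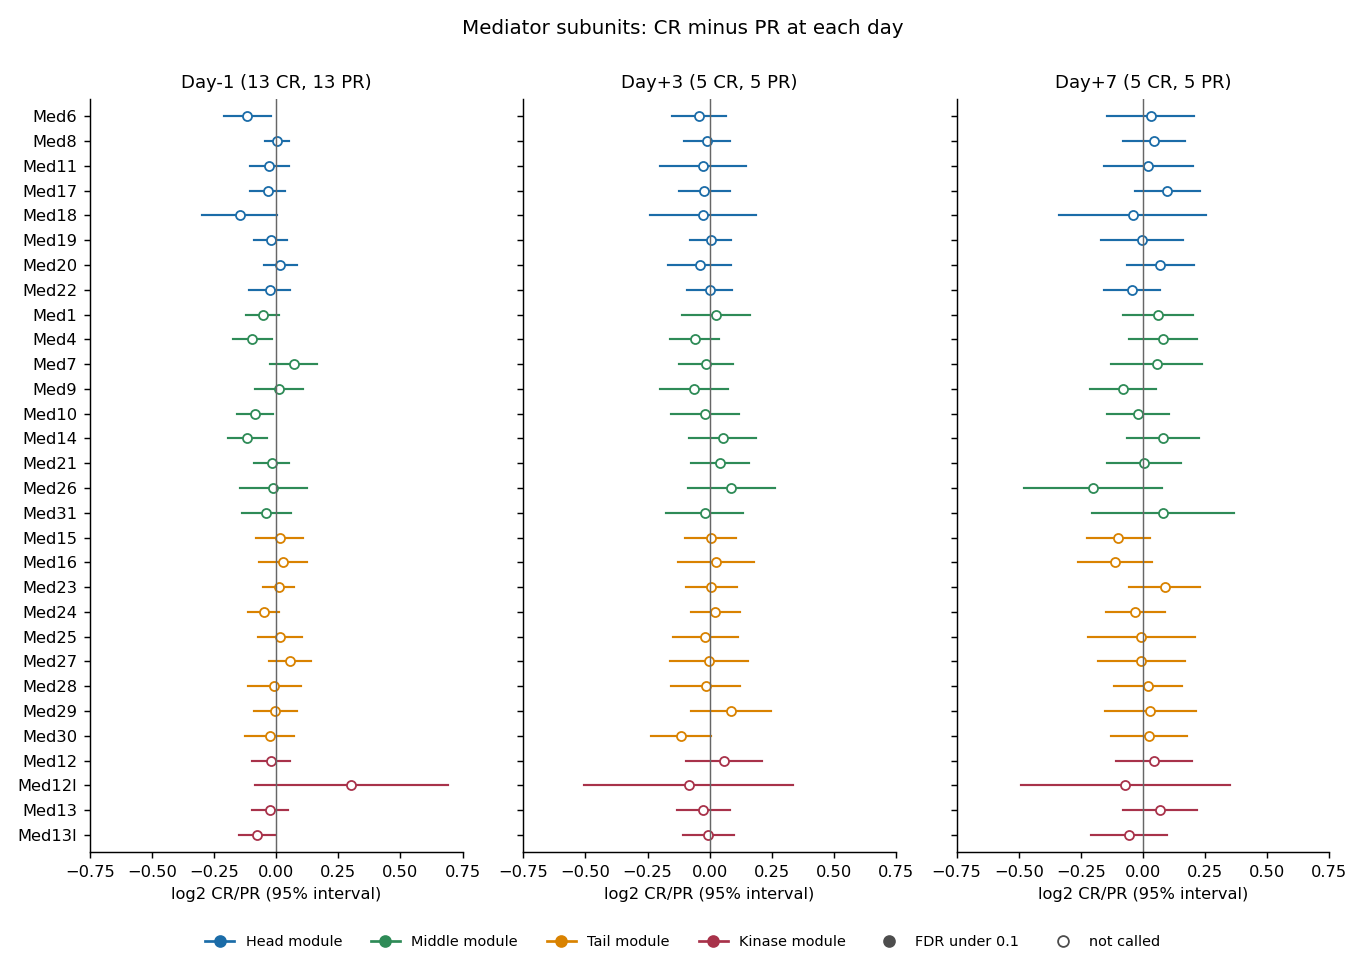
Log2 difference CR minus PR of each subunit with its 95% interval at Day-1, Day+3 and Day+7, colored by module, open circles marking subunits that were not called. Every circle is open, and Med12l has the widest intervals, up to 0.689 before CY.

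Between days, most subunits differed, in both directions. At day 3 against Day-1, 15 subunits were higher (37.9% of 13194 genes were) and 13 were lower (39.6%), with 2 not called. The subunits' shares were 50% and 43.3%, and their median difference was 0.06 against -0.02 for all genes. The differences themselves were small for most members: 7 of 30 exceeded 0.5 on the log2 scale in either direction, against 47.6% of all genes. All 4 subunits of the kinase module were called lower, but Med12l (-0.36, SE 0.162, adjusted p = 0.0432) lost its call in 6 of 58 alternatives, tumors left out in turn included. Among these were library totals alone, no filter on low counts and the fit without the tumors over 10 CPM of Krt5. In the contrast of PR tumors within the fit of all 46 tumors (-0.16, SE 0.227) it was also not called. Nor was Med12l called without CR replicate 4 at Day-1 or without PR replicate 3 at Day+3. Its sign turned when a trend on length and GC content was taken out (0.23, SE 0.164, adjusted p = 0.213). The head and the middle were mixed with 6 higher in each, and the tail had 3 higher and 4 lower.

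Med14, the scaffold, stood furthest out. Its CPM at Day-1 was between 176.6 and 249.6 in the 26 tumors. At Day+3 it was 64.1, 75.6, 73.1, 75.2 and 73.7 in CR replicates 1 to 5 and 61.3, 72.1, 72.1, 77.6 and 67.2 in PR replicates 1 to 5. No tumor after CY reached the lowest tumor before it, and CR and PR interleaved. The fold was 3.16 lower (log2 -1.66, SE 0.0412, adjusted p = 6.65e-33). Med14 is on the X chromosome (chrX:12675369-12762073, minus strand, GRCm38) with a principal transcript of 6.963 kb.

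Med13, which tethers the kinase module to the core, lay between 208.7 and 263.4 CPM at Day-1. At Day+3 it was 127.6, 136.1, 128.1, 136.5 and 142.1 CPM in CR and 124.8, 134.6, 141.7, 145.8 and 138.8 CPM in PR, with no overlap with Day-1. The difference was -0.86 (SE 0.0356, adjusted p = 3.69e-25). Its paralog Med13l went from 126.1 to 180.2 CPM at Day-1 to 92.9, 88.6, 95.2, 90.5 and 91.6 CPM in CR and 95.6, 92.1, 96.3, 93.8 and 85.2 CPM in PR, again without overlap (-0.85, SE 0.0352). Med13 shares 800 of its 10840 exon bases with the antisense gene Brip1os, which itself differed by -0.07.

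The other lower subunits with the smallest p were Med1, the nuclear receptor contact (-0.83, SE 0.0358), Med12, which activates the Cdk8 kinase (-0.59, SE 0.0395), and Med25, a tail contact of activators (-0.56, SE 0.0452). Among the higher subunits Med28, a small subunit often placed in the tail, led with 0.80 (SE 0.0432), from 32.3 to 46.3 CPM at Day-1 to between 65.4 and 80.0 CPM at Day+3. The head subunits Med22 (0.49, SE 0.0312) and Med20 (0.28, SE 0.0318) and the middle subunits Med10 (0.32, SE 0.0347) and Med31 (0.33, SE 0.0489) followed, with Med29 of the tail (0.37, SE 0.0403). Med16 (-0.07, SE 0.0432) and Med27 (0.06, SE 0.0397) were not called. Med10 shares 4168 of its 4491 exon bases with an antisense transcript, Gm26819, and reads of the 2 cannot be told apart without strand, whose use in counting is not given in the sources used here.

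At day 7 against Day-1, 13 subunits were higher (43% of genes were) and 15 were lower (42.8%). The middle had 6 lower and 3 higher, the head 5 higher and 2 lower, the tail 4 each way, and the kinase module 3 lower and 1 higher. Log2 differences over 1 in either direction were found in 4 of 30 subunits, against 38.8% of all genes.

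Med14 was lower still, at 58.6, 70.2, 66.4, 66.8 and 64.5 CPM in CR and 61.4, 63.6, 67.0, 62.5 and 56.2 CPM in PR. All 10 tumors lay under every tumor of Day-1, and the fold was 3.43 lower (log2 -1.78, SE 0.0416, adjusted p = 1.16e-34). Med19, a subunit at the surface between head and middle, was the second: between 72.7 and 93.8 CPM at Day-1, and at Day+7 33.7, 34.3, 39.0, 40.1 and 39.0 CPM in CR and 35.9, 41.0, 38.4, 36.1 and 36.5 CPM in PR. These did not overlap either, at 2.17-fold lower (log2 -1.12, SE 0.0338, adjusted p = 7.75e-31). Med19 shares 246 exon bases with Zdhhc5 on the other strand.

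Med11, the head partner of Med22, differed in the other direction. It lay between 22.7 and 28.6 CPM at Day-1 and reached 58.3, 46.8, 53.5, 48.1 and 57.6 CPM in CR and 46.7, 53.2, 57.5, 53.0 and 51.3 CPM in PR at Day+7. The groups of the 2 days did not overlap, and the fold was 2.06 higher (log2 1.04, SE 0.0394, adjusted p = 3.26e-27). At day 3 Med11 had still been at 24.0 to 31.0 CPM, where its difference was 0.09 (SE 0.0412, adjusted p = 0.0518).

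**Figure D3:**
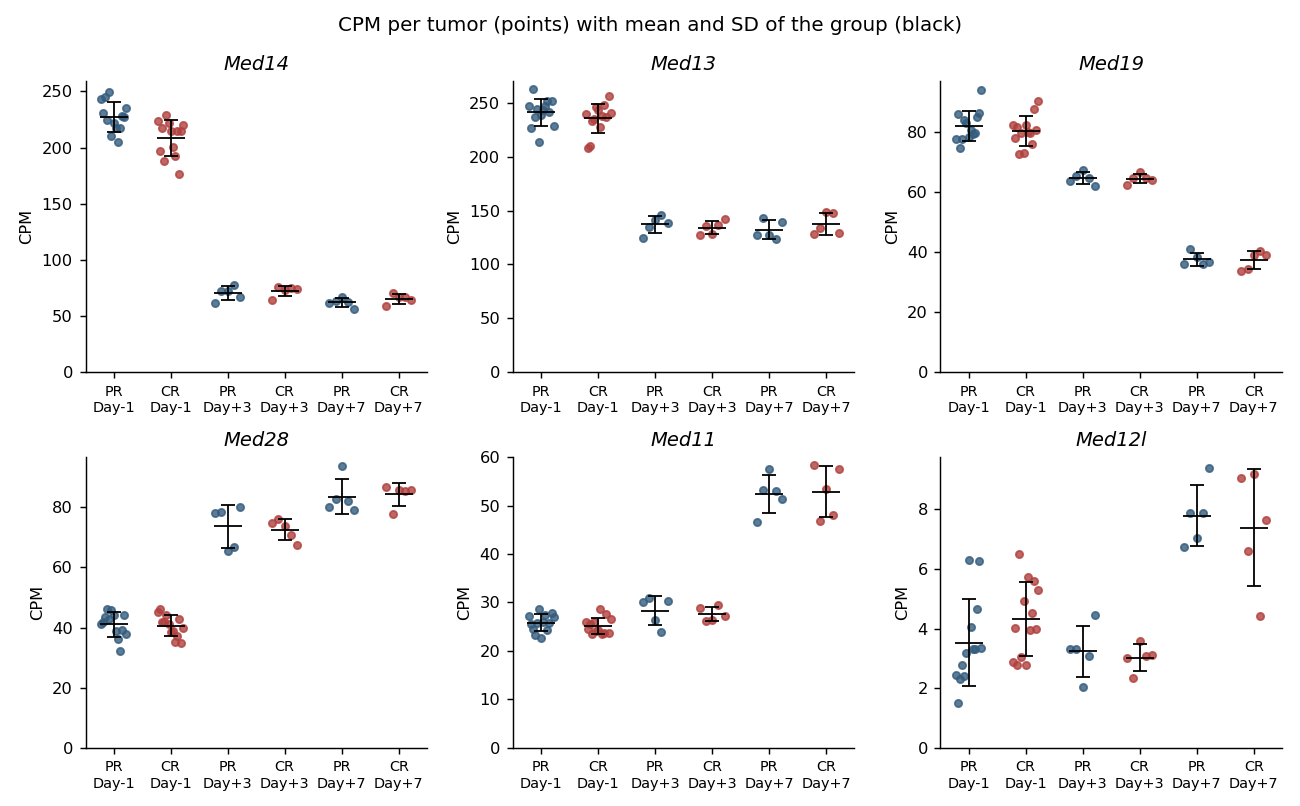
CPM of 6 Mediator subunits in each tumor (points), by response and day, with the mean and SD of each group in black, each axis starting at 0. Med14 and Med13 are low from Day+3, Med19 steps down at each day, Med28 is high from Day+3, and Med11 and Med12l are high at Day+7, with CR and PR tumors interleaved on each of these days.

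The next lower subunits at day 7 were Med13 (-0.83, SE 0.0356), Med25 (-0.996, SE 0.0466), Med13l (-0.64, SE 0.0348) and Med12 (-0.64, SE 0.0397). The next higher were Med28 (1.04, SE 0.0429), Med8 (0.43, SE 0.0253) and Med20 (0.45, SE 0.0316) of the head, Med10 (0.42, SE 0.0347) and Med22 (0.37, SE 0.0314). Med16 (-0.04, SE 0.0433) and Med17, the central head subunit (-0.05, SE 0.0319), were not called.

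Between day 3 and day 7, 12 subunits were higher at day 7 (38.8% of genes were) and 13 were lower (36.5%), with 5 not called. Med19 went from 62.3, 64.7, 66.4, 64.6 and 63.8 CPM in CR and 63.7, 65.4, 67.1, 64.5 and 61.8 CPM in PR at Day+3 to the Day+7 values above. The days did not overlap, at -0.74 (SE 0.0384, adjusted p = 1.36e-21). Med11 was at 28.9, 26.3, 26.5, 29.5 and 27.2 CPM in CR and 30.1, 31.0, 26.3, 24.0 and 30.3 CPM in PR at Day+3, all under the Day+7 tumors (0.95, SE 0.0495, adjusted p = 1.79e-21). Med21, highest of all subunits per kilobase, was at 80.1, 84.7, 81.4, 72.7 and 84.5 CPM in CR and 73.7, 83.0, 81.2, 74.5 and 81.2 CPM in PR at Day+3. It was at 58.0, 51.9, 63.0, 57.8 and 54.2 CPM in CR and 60.3, 60.0, 52.6, 54.1 and 59.0 CPM in PR at Day+7, below each Day+3 tumor (-0.44, SE 0.0409, adjusted p = 3.83e-13).

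Also lower at day 7 than at day 3 were Med31 (-0.55, SE 0.0599), Med25 (-0.43, SE 0.0531), Med4 (-0.27, SE 0.0406) and Med6, a head subunit (-0.33, SE 0.0493). Higher were Med8 (0.32, SE 0.0309), Med15 (0.49, SE 0.0488), Med1 (0.36, SE 0.0413), Med7 (0.32, SE 0.0509) and Med12l (1.31, SE 0.189). Med14 differed little between these days, by -0.12 (SE 0.0455). With library totals alone in place of TMM factors, the split became 3 higher and 23 lower, and Med1, Med7 and Med8 were no longer called. The median of all genes shifted to -0.26, with 3516 of 13194 genes higher and 6906 lower. With library totals, the log2 fold change was -1.03 for Med19, 0.66 for Med11 and 0.20 for Med15, each still called in the same direction.

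**Figure D4:**
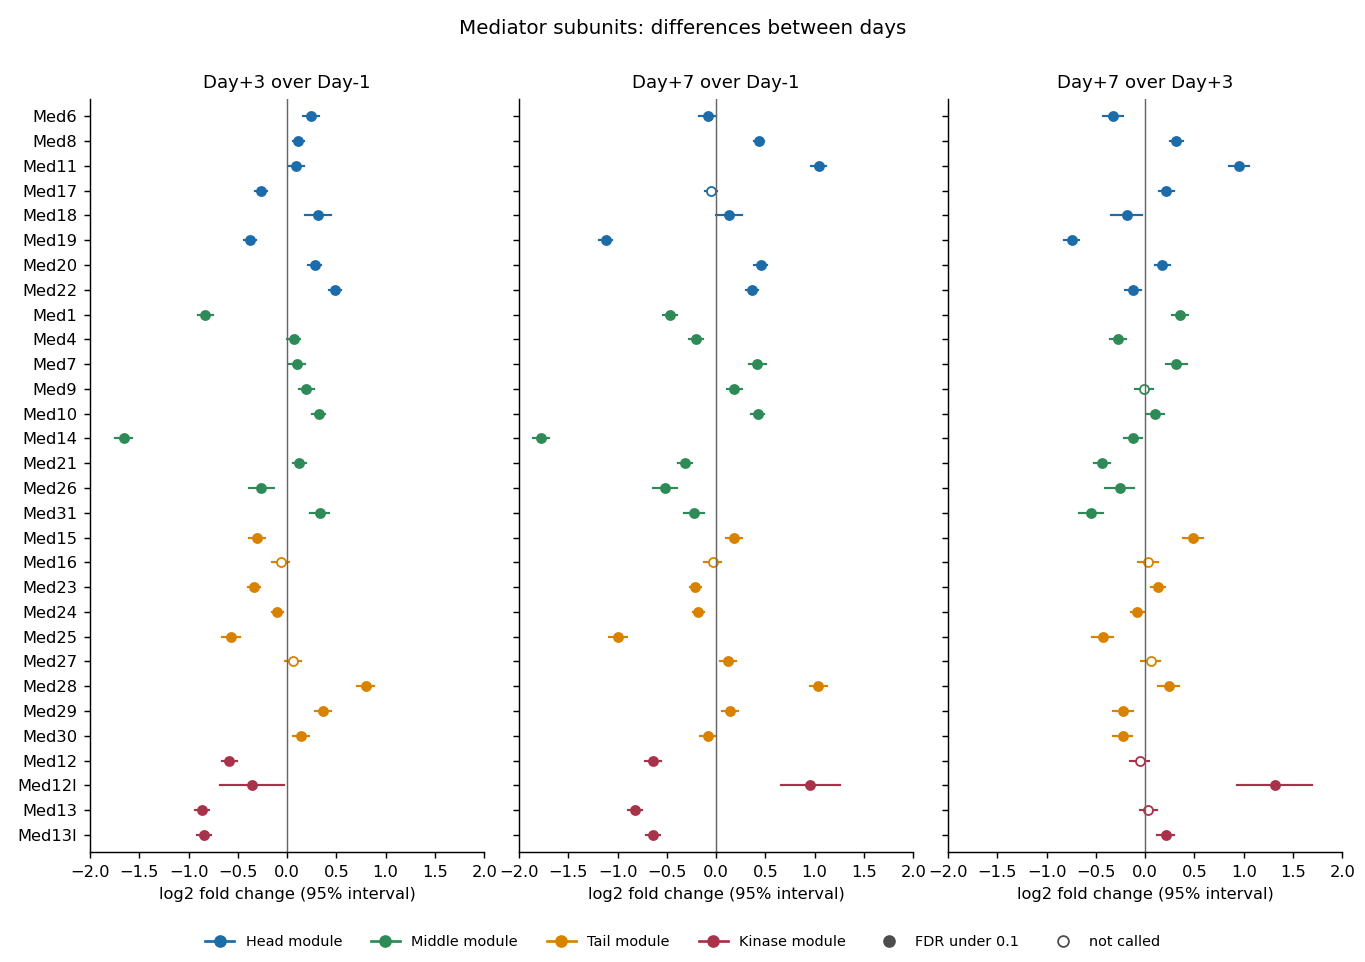
Log2 fold change of each subunit with its 95% interval for 3 comparisons of days, colored by module, filled where the FDR was under 0.1. Med14 lies at -1.66 and -1.78 against Day-1, Med28 at 0.80 and 1.04, and Med11 and Med12l move mainly between Day+3 and Day+7.

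Subunits known to sit side by side in the complex did not always share a direction. These pairs were set side by side after their values had been seen. Med11 and Med22 were both higher at day 7 (1.04 and 0.37), as were Med18 and Med20 at day 3 (0.32 and 0.28). Med7 was higher at day 7 (0.42, SE 0.0418) while its hinge partner Med21 (-0.32, SE 0.0347) and Med31 (-0.22, SE 0.0508), which also binds Med7, were lower. Med4 was lower (-0.21, SE 0.0343) where its partner Med9 was higher (0.18, SE 0.0374). With the length and GC trend taken out, Med9 (-0.13) was called lower like Med4 (-0.45), and Med22 (-0.084) was called lower while Med11 (0.62) stayed higher. Med7 (0.57), Med21 (-0.40) and Med31 (-0.63) kept their directions.

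The paralogs of the kinase module differed in course. Per kilobase, Med12 exceeded Med12l by a median ratio of 94.6 at Day-1 (45.6 to 221.5 over 26 tumors), 74.9 at Day+3 (50.5 to 120.9) and 28.6 at Day+7 (21.3 to 51.2). The ratio of Med13 to Med13l kept close to 1, at medians of 1.30, 1.31 and 1.16. Med12l rested on 1.5 to 9.37 CPM. It lies on the opposite strand to Igsf10, with 1948 of 12763 exon bases shared, and P2ry12, a myeloid receptor gene within its locus, shares 9. At day 3 Igsf10 differed by 0.16 (not called) and P2ry12 by 0.61, against -0.36 for Med12l. At day 7 Igsf10 differed by 0.48 and P2ry12 by 0.46, against 0.96 for Med12l. The share of these genes in its reads was not tested.

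The partners of the module were also measured. Ccnc, encoding cyclin C, was lower at day 3 (-0.57, SE 0.0333) and at day 7 (-0.79, SE 0.0339). Cdk8 was not called at day 3 (0.07, SE 0.0574) and was lower at day 7 (-0.53, SE 0.0594), from a median of 212.6 to 138.5 CPM. Cdk19, the alternative kinase, was not called at day 3 (-0.04, SE 0.0406) and was higher at day 7 (0.34, SE 0.0399), from 58.9 to 77.8 CPM. None of the 3 was called between CR and PR on any day. Summed per kilobase, the 30 subunits kept a near-constant level, with medians of 894.8 at Day-1, 926.0 at Day+3 and 885.7 CPM per kilobase at Day+7. Within this sum, the 4 kinase-module subunits held 6.78 to 8.40% at Day-1 and 4.23 to 5.14% at Day+3, without overlap. The head held 29.9 to 32.4% at Day-1 and 37.2 to 39.0% at Day+7. Principal transcripts are 6.809 to 11.006 kb long in the kinase module and 0.902 to 3.964 kb in the head. Long and short genes shifted apart between these days, as given below, and the part of length in these shares was not tested.

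The same 2 time points in related machinery, from lists of genes whose symbols fall before the end of the table, showed the following. Over all genes, 37.9% were higher and 39.6% lower at day 3, and 43% and 42.8% at day 7. Of coding genes over 5 kb, 64.0% were lower at day 3 and 58.1% at day 7, against 19.8% and 26.8% of those under 1.5 kb. The lists were not matched for length, and its part in their counts was not tested. At day 3, 15 of 15 Integrator subunits, which cleave nascent RNA, were lower (median -0.42, Ints8 at -0.98), and 15 of 15 genes of enhancer coactivators and cohesin loading were lower (median -0.65, Nipbl at -1.16). General transcription factors had 7 higher and 7 lower of 18 (median 0.00), with Btaf1 at -1.10 and Gtf2h5 at 0.63. Of 26 pause release and elongation genes, 16 were lower and 9 higher, Cdk12 at -1.26 among them. At day 7 the counts lower and higher were 13 and 1 of 15 for Integrator, 12 and 3 of 15 for the coactivators, 11 and 6 of 18 for the general factors and 17 and 8 of 26 for elongation.

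Transcript length moved with the differences from Day-1, less so at day 7 than at day 3. At day 3, all 6 subunits over 5 kb were lower, with a median of -0.84, where 1774 coding genes of that length had a median of -0.37 and 64.0% were lower. Of the 11 subunits under 1.5 kb, 10 were higher and 0 lower, where 59.8% of 1584 such genes were higher and 19.8% lower. Their median was 0.14 against 0.35 for those genes. At day 7, 6 of these 11 were higher and 5 lower (median 0.12). Of such genes, 63.1% were higher and 26.8% lower (median 0.50). Of the 6 subunits over 5 kb, 5 were lower and 1 higher at day 7 (median -0.64, against -0.34 for genes of that length). Over the 30 subunits, Pearson's r between the log2 difference and log2 length was -0.70 at day 3 and -0.33 at day 7, against -0.25 and -0.22 over 9235 coding genes. Between day 3 and day 7, r had the opposite sign in the subunits, at 0.35 against -0.09 over the coding genes. These are correlations across genes that share their libraries, given as a description. The tumors themselves were apart in this respect: the median log2 deviation (from each gene's mean over all tumors) of coding genes over 5 kb less that of genes up to 1.5 kb was 0.222 to 0.433 at Day-1, -0.451 to -0.244 at Day+3 and -0.577 to -0.382 at Day+7. The share of mitochondrially encoded RNA was 5.41 to 6.90% at Day-1 and 2.93 to 4.13% and 2.29 to 2.88% at the later days.

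**Figure D5:**
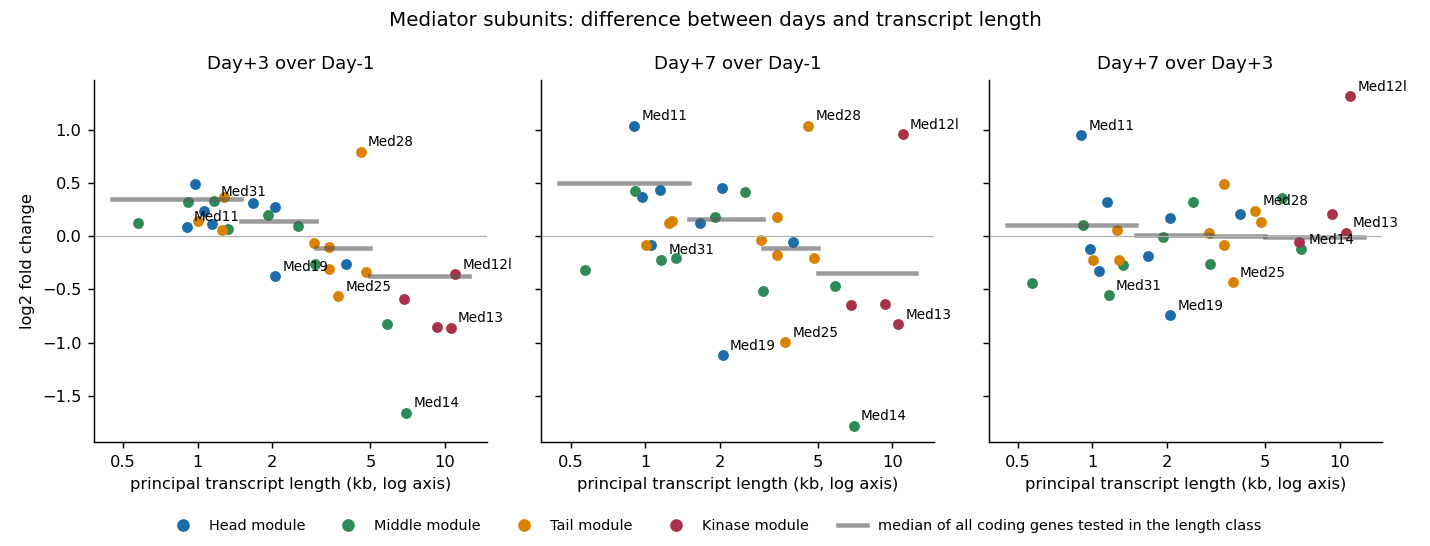
Log2 fold change of each subunit against the length of its principal transcript (log axis, kb) for 3 comparisons of days, colored by module, with gray bars for the median of all coding genes tested in each length class. At day 3 the subunits descend from 0.14 (median under 1.5 kb) to -0.84 (over 5 kb), with Med14 lowest and Med28 standing above its class.

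When a trend on length and GC content was taken out of each tumor, an alternative chosen after seeing the data, 6 subunits were higher (37.9% of 12930 genes were) and 18 lower (37.9%) at day 3, with a median of -0.11. Med14 (-1.14), Med25 (-0.63) and Med19 (-0.41) stayed lower and Med28 (1.09) stayed higher. In the kinase module, the values of Med13 (-0.17), Med13l (-0.44) and Med12 (-0.28) shrank, and Med12l turned from -0.36 to 0.23 and was not called. The values of Med1 (-0.46) and Med20 (0.09) also shrank. Med10 (0.01), Med22 (0.04), Med29 (-0.04), Med30 (-0.002) and Med31 (-0.04) were no longer called. Med4 (-0.15), Med8 (-0.14), Med9 (-0.094) and Med11 (-0.28) were called in the opposite direction. Med16 (-0.21) and Med27 (-0.31), not called before, were called lower. At day 7, 10 were higher (44.6% of genes) and 18 lower (41.5%), with Med14 at -1.23, Med28 at 1.35, Med11 at 0.62 and Med12l at 1.63. Med13 was then at -0.07, Med13l at -0.16, Med12 at -0.31, Med8 at 0.14 and Med10 at 0.06. Med22, Med23, Med27, Med29 and Med9 were called in the opposite direction there, and Med17, not called before, was called higher (0.16). Med18 (-0.02) was no longer called. Between day 3 and day 7, 13 were higher (40.1% of genes) and 12 lower (35.8%). Between these 2 days the subunits called both ways differed little from the reported fit, Med19 being at -0.75 and Med11 at 0.90, and 0 were called in the opposite direction.

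Counting calls that held in the same direction under each planned setting, leave-one-out fits included, and with the length and GC trend taken out, 5 subunits were higher and 11 lower at day 3. They were Med6, Med18, Med20, Med21 and Med28, and Med1, Med12, Med13, Med13l, Med14, Med15, Med17, Med19, Med23, Med25 and Med26. At day 7 they were 7 higher (Med7, Med8, Med10, Med11, Med12l, Med20, Med28) and 12 lower, Med14, Med19, Med25 and Med31 among them. The number between day 3 and day 7 was 3 higher (Med11, Med12l, Med15) and 8 lower (Med4, Med6, Med19, Med21, Med25, Med29, Med30, Med31). The share of all genes whose calls held in this way was not computed. Whether these counts are particular to the subunits therefore cannot be told.

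The days were also contrasted within each response class, in the same fit of all 46 tumors and not in separate fits. The reported difference is the mean of CR and PR. The subunits the results turn on had the same sign in both classes. Med14 was at -1.58 (SE 0.0579) in CR alone and at -1.74 (SE 0.0585) in PR alone at day 3, and at -1.68 and -1.87 at day 7. Med28 was at 1.05 in CR and 1.03 in PR at day 7, Med19 at -1.11 and -1.13, and Med11 at 1.06 and 1.02.

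Markers of other cells moved over the same days. The 11 macrophage markers were all higher at day 3 and at day 7, their sum going from 2716 to 6839 CPM at Day-1 to between 10119 and 14537 CPM at Day+3 and between 15302 and 23168 CPM at Day+7. The 13 T cell markers were all higher at day 7 (53.6 to 288.3 CPM at Day-1, 213.4 to 956.0 CPM at Day+7), with 7 lower and 0 higher at day 3. Of 19 cell division genes, 11 were lower and 4 higher at day 3 and 18 were lower at day 7, their sum going from 3757 to 5256 CPM at Day-1 to between 880 and 1498 CPM at Day+7. The 7 fibroblast markers tested had 6 higher at day 3 and the 5 red blood cell genes were all lower at day 3 and all higher at day 7. Skeletal muscle genes had 9 of 12 higher at day 7. Skin genes had 4 of 11 lower at day 3, but only 1 of the 11 had unadjusted p under 0.05 in the same test. Krt5 exceeded 10 CPM in 10 tumors at Day-1 and in 1 at Day+3. Endothelial markers had 3 higher and 3 lower of 7 at day 3 and 5 higher and 2 lower at day 7. Of the 5 mesothelial markers tested, 3 were higher and 1 lower at day 3 than at Day-1, and 5 were lower at day 7 than at Day-1. None of these lists had a marker at 0 in all tumors of a day except the mesothelial list at day 7 (Muc16), and their part in the subunits' values was not tested.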

How the data were processed

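The deposited table holds whole-number counts per gene and tumor that, per the labels and the study's methods, the authors made with kallisto on GRCm38.p6 from single-end reads of total RNA. The kallisto version, the summing to genes and the rounding are not given in the sources used here, and read length differs between the labels and the study. The table is partial: it ends inside the row of Pax7, that row was left out, and genes sorting after it were not analysed here. Members and lists were chosen with earlier results of these data known.

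Counts were tested with edgeR 4.0.16 (glmQLFit, legacy mode, and glmQLFTest, two-sided, in R 4.3.3), TMM factors and filterByExpr, with Benjamini-Hochberg adjustment over all genes tested and calls at FDR under 0.1. CR and PR were compared on the tumors of each day, and days and interactions in 1 model of 6 groups. Standard errors are the log2 fold change over the root of F. CPM used TMM factors over 46 tumors. The number of tumors per group and total counts of 10227681 to 19446596 set the precision. Lengths are of the longest principal transcript in GENCODE M21. Named per comparison were up to 6 called subunits per direction with the smallest p, or the 2 smallest where none was called, the Med12 and Med13 pairs, the 2 highest and lowest levels, the kinase partners and up to 3 genes of each other list. Alternatives were DESeq2 1.42.0, limma-voom (limma 3.58.1), other scalings, filters, thresholds and covariates, tumors left out, and length and GC offsets. The steps were tested on simulated data with few changed genes and no trend on length. That setting differs from the day comparisons, where most genes were called, so the simulation cannot vouch for them. Replicates are separate mice.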

Additional observations from a re-analysis of the deposited data

Results flagged for a closer look

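In groups of 5 tumors, 1 tumor stood far from the rest in 3 of 96 groups (24 named subunits in 4 groups), fewer than the about 1 in 20 that chance gives. Med14 was at 64.1 CPM in CR replicate 1 at day 3, with the other 4 tumors between 73.1 and 75.6. Med28 was at 93.8 CPM in PR replicate 3 at day 7, where the others lay between 79.1 and 82.9, and at 77.7 CPM in CR replicate 2 at day 7, where the others lay between 85.4 and 86.8. Each of the 3 values still lay outside the range of its subunit at Day-1.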

How the results depend on the processing

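Between CR and PR before CY, 0 subunits were called in the reported fit, 1 with DESeq2 (Med14) and 2 with limma-voom (Med14 and Med6). Of all 10777 genes tested, DESeq2 called 232 higher and 211 lower in CR, and limma-voom called 714 and 474. When each tumor was left out in turn, 0 to 2 subunits were called (1 without PR replicate 7, 2 without PR replicate 9). The counts at day 3 and day 7 and the interactions stayed at 0 under each alternative. The counts of called subunits between days stayed within 1.5 times: leaving out each tumor in turn gave 26 to 29 of 30 at day 3 against Day-1, 26 to 29 at day 7 and 24 to 26 between day 3 and day 7.

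Scaling by library totals alone moved the split of the subunits to 16 higher and 11 lower at day 3. It became 8 and 17 at day 7 (all genes shifting by -0.17) and 3 and 23 between the later days. Of all 13194 genes, 5877 were then higher and 4369 lower at day 3. These counts were 4940 and 6453 at day 7, and 3516 and 6906 between the later days. The length and GC trend moved the split of the subunits from 15 and 13 to 6 and 18 at day 3. Of the subunits picked by p in each comparison, 4 values reversed: Med15 between CR and PR at day 7 (0.0036 without tumors over 10 CPM of Krt5), and with the length and GC trend taken out Med29 (-0.038) and Med31 (-0.041) at day 3 and Med22 (-0.084) at day 7. Of the other values printed for single subunits, the same trend turned the sign of Med11 (0.09 to -0.28), Med12l (-0.36 to 0.23) and Med27 (0.06 to -0.31) at day 3 and of Med9 (0.18 to -0.13), Med16 (-0.036 to 0.032) and Med17 (-0.05 to 0.16) at day 7. Med16 and Med17, which were not called, also changed sign in some of the other fits. The cause was not tested. No paired analysis was possible because no tumors share a mouse and their replicate numbers were given in accession order. Med12l, at the lowest counts, had the widest intervals between CR and PR.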
